A study of Gallus gallus with 50 samples.

Results

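In chicken embryos, 55 genes had at least 2-fold more mRNA in reporter-labelled cranial neural crest than in the other cells of the same heads at the 2 earliest stages sampled, and not at the 3 latest. These 55 genes were selected on those very ratios, out of 24356 genes counted. A gene was taken where its mean level in the crest fraction, with 0.5 added, was at least 2 times the same quantity in the other fraction at stages HH6 and HH8, and less than 1.25 times at HH12, HH14 and HH16. It also needed a mean crest level of at least 5 CPM (the reads of a gene scaled to 1000000 counted reads in its library) at HH6, at least 10 at HH8 and more than 1 at HH16. Genes of chromosomes MT and W and the gene ENSGALG00000043204 were left out. Of 8913 genes with the crest level asked for, 188 had the early ratio, and 55 of these met the late condition. Another 8 kept a ratio of 2 or more at HH12, HH14 and HH16, and 125 fell between the conditions. The stage HH10 entered the choice nowhere, so it is the only one at which a difference between the fractions could be tested.

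Neural crest cells arise at the border of the neural plate, leave the dorsal neural tube as it closes and migrate through the head, where they form facial skeleton, peripheral neurons, glia and pigment cells. TFAP2A encodes a transcription factor of the early crest and of the surface ectoderm, and an enhancer of such a gene can drive a fluorescent reporter in the cells in which the enhancer is active. Hamburger-Hamilton (HH) stages order chick embryos by their form. Those sampled here, HH6 to HH16, run from the neural plate to the migration of crest into the face.

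All embryos of the series, in both fractions, were grown outside the shell and electroporated with ptk-TFAP2AE1-GFP, a reporter driven by the TFAP2AE1 enhancer. About 20 dissected heads made up a sample, and sorting of the dissociated cells gave a fraction with GFP, labelled Neural Crest and written NC here, and a fraction of head cells without GFP, called GFP-negative. The NC fraction is therefore what the reporter marked after electroporation, and cells that did not take up the reporter would be sorted with the rest of the head. In the authors' filtered table either fraction has 5 libraries at HH16, 4 at HH12 and 3 at any other stage. The titles give NC and GFP-negative libraries a shared prefix, read here as the name of the pool of embryos they came from. The file headers also carry a code for each library, such as HFK7NBGX9, read here as the sequencing run. Reads of the kept libraries numbered 4869937 to 29316689. The deposited table gives Ensembl identifiers without gene names, so the genes are given by identifier and position on GRCg6a. No gene list or cell type marker could be looked up, and the cell type named on the labels was not checked.

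The authors' full table holds 8 more libraries, which the series' design text describes as low in quality and which took no part in choosing the genes. They are 1 NC and 1 GFP-negative library each of HH6, HH8, HH10 and HH12. The left-out NC library of HH6 had 512123 counted reads, and its log2 levels over the 8913 genes correlated with the mean of the kept NC libraries of its stage at r = 0.110. The left-out NC library of HH10 correlated at 0.938 with the kept NC libraries of HH10 and at 0.971 with those of HH8. The left-out GFP-negative library of HH10 correlated at 0.745 with the kept GFP-negative libraries of HH10 and at 0.864 with those of HH8. Values of the left-out libraries are given beside some of the results. They entered a fit or the rule only where all 50 libraries are named.

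At HH6 the 55 genes had a median ratio of NC to GFP-negative cells of 2.37, with a range of 2.00 to 6.12. At HH8 the median was 2.59, with a range of 2.05 to 8.04. These are the values that chose the genes, and they are given as a description. The genes closest to the limit on the inside had ratios of 2.00, 2.01 and 2.01 at HH6, and genes meeting every other condition had 2.00, 1.99 and 1.99 just outside it. At HH8 the corresponding ratios were 2.05, 2.11 and 2.13 inside and 2.00, 1.92 and 1.91 outside. The highest of the late ratios were 1.24, 1.23 and 1.23 inside and 1.26, 1.26 and 1.26 outside. The set therefore has no gap at its edges, and genes with nearly the same ratios lie on both sides. Single libraries also moved the selection. When each of the 36 libraries that enter the rule was left out in turn, 6 of the 55 genes were selected every time, and each of the 55 was selected at least 28 times. Without GFP-negative replicate 3 of HH6, the library with the lowest median of the 55 genes in its group, the rule kept 30 of them. On library sizes scaled by TMM (a correction for differences in RNA composition) it kept 35 of the 55, and with all 50 libraries of the full table it kept 18.

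**Figure D1:**
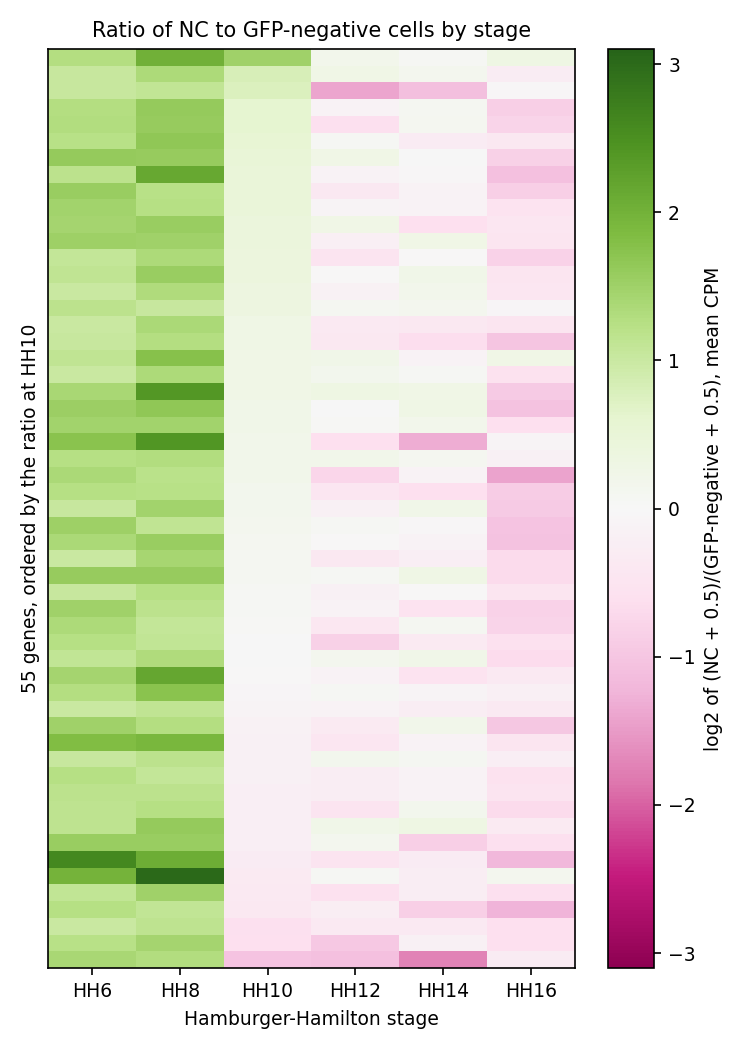
Ratio of NC to GFP-negative cells for each of the 55 genes (rows) at each stage (columns), as log2 of mean CPM with 0.5 added in both groups, with rows ordered by HH10. The HH6 and HH8 columns are at 1 or more by choice, the HH10 column runs from positive to negative, and at HH16 52 of 55 genes are below 0.

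The early ratio came from pools that did not all have the same size of difference. In the kept pools of HH6 the median log2 ratio of the 55 genes between the NC and GFP-negative library of a pool was 1.19, 1.01 and 1.89, and in those of HH8 it was 1.10, 1.88 and 1.33. All 55 genes were higher in NC than in GFP-negative cells in 5 of these 6 pools, and 54 were in the first HH6 pool. At least 2-fold higher in NC were 35, 29 and 51 of the 55 in the HH6 pools, against 2.72%, 2.68% and 16.3% of the 8913 genes. In the HH8 pools 34, 53 and 44 were, against 3.47%, 19.2% and 10.8%. The median log2 ratio of the 8913 genes was -0.01, -0.001 and 0.22 at HH6 and 0.01, 0.27 and 0.13 at HH8. The rule fixes that the mean ratio is higher at HH6 and HH8 than at HH12, HH14 and HH16, so the values by sequencing run are a description of which libraries carry it. In the libraries with the code HFK7NBGX9, read as 1 run, the pools gave 1.19 at HH6, 1.10 at HH8 and -0.22 at HH16. In the run HTNMMBGX3 they gave 1.01 at HH6, 1.88 at HH8, -0.17 at HH14 and -0.56 at HH16. In HHTM3BGX5 they gave 1.89 at HH6, 1.33 at HH8, 0.28 at HH12 and -0.20 at HH14. The runs HGM37BGX7 and HLYH2BGX9 held no kept pool of HH6 or HH8, and the 2 HH12 pools of HLYH2BGX9 gave -0.47 and 0.09.

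In the left-out libraries the median difference was smaller at HH6 and was not seen at HH8. In the left-out pool of HH6, 19 of 55 genes were at least 2-fold higher in NC, against 21% of the 8913 genes. The median log2 ratio of the 55 genes there was 0.31, and that of the 8913 genes was -0.51. The NC library of this pool is the one that correlated at 0.110 with its group. The ratio in this pool also differed by exon number over the 8913 genes, as given below. In the left-out pool of HH8, 5 of 55 genes were at least 2-fold higher in NC, against 5.95% of the 8913 genes. The median log2 ratio of the 55 genes was -0.38 in that pool, 20 of 55 were above 0, and the 8913 genes had a median near 0. With 1 library in each fraction these are values without a test, and the median of the 55 genes was not higher in NC in the HH8 libraries that the rule did not use. The NC library of that pool had 3238290 counted reads, below the 4869937 of the smallest kept library. It had 16842 genes with 10 or more reads, against 11128 to 14725 in the kept libraries. Both libraries of that pool correlated better with kept HH12 libraries of their fraction than with those of HH8, at 0.936 against 0.844 in GFP-negative cells and at 0.872 against 0.868 in NC. The left-out GFP-negative library of HH6 also correlated better with HH12, at 0.951 against 0.895. In the HH12 pool whose NC library was left out, the median log2 ratio of the 55 genes was -0.83, and 4 of 55 were above 0. In the HH12 pool whose GFP-negative library was left out, it was 0.41, and 35 of 55 were above 0. There 13 of 55 were at least 2-fold higher in NC, against 12.4% of the 8913 genes. That GFP-negative library correlated at 0.940 with the kept GFP-negative libraries of HH8 and at 0.871 with those of HH12.

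**Figure D2:**
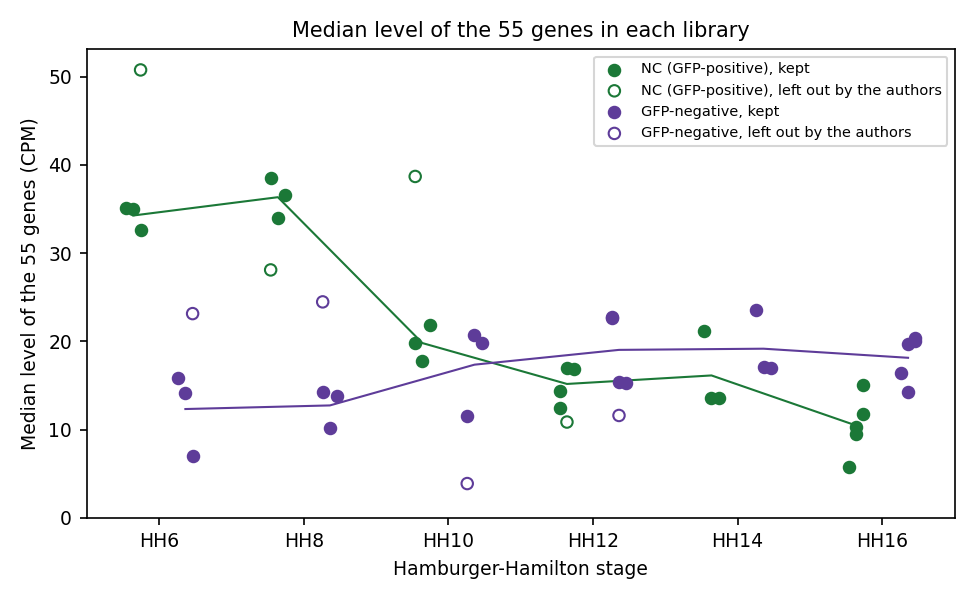
Median level of the 55 genes in each library, in CPM on a linear axis from 0, for NC (green) and GFP-negative cells (purple) by stage. Filled points are kept libraries, hollow points are libraries the authors left out, and lines join the means of the kept libraries. Kept NC libraries lie between 32.7 and 38.5 CPM at HH6 and HH8 and between 17.8 and 21.8 at HH10, while kept GFP-negative libraries lie between 6.98 and 15.8 at HH6 and HH8.

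In the kept libraries the levels of the 55 genes in NC were lower at HH10 than at HH8. In GFP-negative cells the group mean of the library medians was higher at HH10 and later than at HH8, with libraries of HH8 and HH10 overlapping. In NC the median level over the 55 genes was 32.7 to 35.1 CPM in the 3 libraries of HH6 and 34 to 38.5 in those of HH8. It was 17.8 to 21.8 at HH10, 12.4 to 17 at HH12, 13.6 to 21.2 at HH14 and 5.75 to 15.1 at HH16. In GFP-negative cells it was 6.98 to 15.8 at HH6, 10.1 to 14.2 at HH8 and 11.5 to 20.7 at HH10. It was then 15.3 to 22.8 at HH12, 16.9 to 23.5 at HH14 and 14.2 to 20.3 at HH16. The GFP-negative libraries of HH10 at 20.7 and 19.8 CPM were of the run HGM37BGX7, which held no kept library of HH8. The one at 11.5 was of another run, so run and stage cannot be told apart there. Within HFK7NBGX9 the GFP-negative median was 14.2 CPM at HH8 and 14.2 at HH16. It went from 10.1 at HH8 to 20.3 at HH16 in HTNMMBGX3, and from 13.8 to 16.4 in HHTM3BGX5. The ranges of the kept libraries of the 2 fractions are apart at HH6 and HH8 and overlap at HH10, HH12, HH14 and HH16. The left-out NC libraries had medians of 50.8 CPM at HH6, 28.1 at HH8, 38.7 at HH10 and 10.9 at HH12. The left-out GFP-negative libraries had 23.1, 24.5, 3.88 and 11.6. From HH8 to HH10 the left-out libraries thus went up in NC and down in GFP-negative cells, against the kept means. Each left-out library of HH8 and HH10 correlated better with kept libraries of another stage than with those of its labelled stage. All levels given here are from sorted bulk RNA, in which fewer cells that use a gene and less RNA per cell cannot be told apart.

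Summed over the 55 genes, NC held 6922 ± 812 CPM at HH6 (SD, n = 3), 6677 ± 529 at HH8 (n = 3) and 2982 ± 626 at HH10 (n = 3). The later NC sums were 2234 ± 259 at HH12 (n = 4), 2258 ± 673 at HH14 (n = 3) and 1493 ± 397 at HH16 (n = 5). In GFP-negative cells the sum was 2650 ± 518 CPM at HH6 (n = 3), 2396 ± 635 at HH8 (n = 3), 2856 ± 672 at HH10 (n = 3) and 2200 ± 317 at HH16 (n = 5). The GFP-negative means thus lay between 2200 and 2856 CPM at all stages, and the NC means from HH10 on were 2982 CPM or less. One gene, ENSGALG00000026862, carried much of the early NC sum. Without it the NC sums were 3925 CPM at HH6, 4280 at HH8, 2484 at HH10 and 1441 at HH16. The GFP-negative sums without it were 1632 CPM at HH6, 1591 at HH8, 2270 at HH10, 2062 at HH12, 2064 at HH14 and 2121 at HH16. Without this gene the GFP-negative mean was thus higher from HH10 on than at HH6 and HH8.

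From HH8 to HH10 the median log2 change of the 55 genes was -0.71 in NC, and 52 of 55 had a lower mean. In NC, 21 of 55 were at least 2-fold lower at HH10, against 2.01% of the 8913 genes with the level asked for. Over the same interval the median change in GFP-negative cells was 0.53, with 39 of 55 higher, and 12 of 55 were at least 2-fold higher, against 5% of the 8913 genes. Both counts follow in part from the choice of genes that were high in NC and low in GFP-negative cells at HH8, and nothing is read from them about these genes in particular. Between HH6 and HH8 the median changes were 0.17 in NC and 0.00 in GFP-negative cells.

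The means moved in both fractions between HH8 and HH10. For 36 of 55 genes the NC mean was lower and the GFP-negative mean was higher at HH10. For 16, both means were lower, and for 3 both were higher. The larger of the 2 changes was in NC for 30 genes and in GFP-negative cells for 25. NC alone was at least 2-fold lower for 20 genes, GFP-negative cells alone were at least 2-fold higher for 11, both held for 1 and neither for 23. HH8 entered the rule, so these counts follow in part from the choice of genes and are a description. The 133 other genes that had the early ratio had median log2 changes from HH8 to HH10 of -0.51 in NC and 0.40 in GFP-negative cells. From HH8 to HH16 the change in NC was the larger one for 43 genes and that in GFP-negative cells for 12. At HH16, 39 of 55 genes, or 70.9%, were at least 2-fold below their HH8 level in NC. The same held for 8.32% of the 8913 genes and 71.4% of the 133 other genes that had the early ratio. In GFP-negative cells 11 of 55, or 20%, were at least 2-fold above their HH8 level, against 5.68% of the 8913 and 16.5% of the 133. The median log2 change from HH8 to HH16 was -1.72 in NC and 0.42 in GFP-negative cells, and the latter was 0.17 without GFP-negative replicate 2 of HH8. Both stages entered the rule, and these changes are a description.

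**Figure D3:**
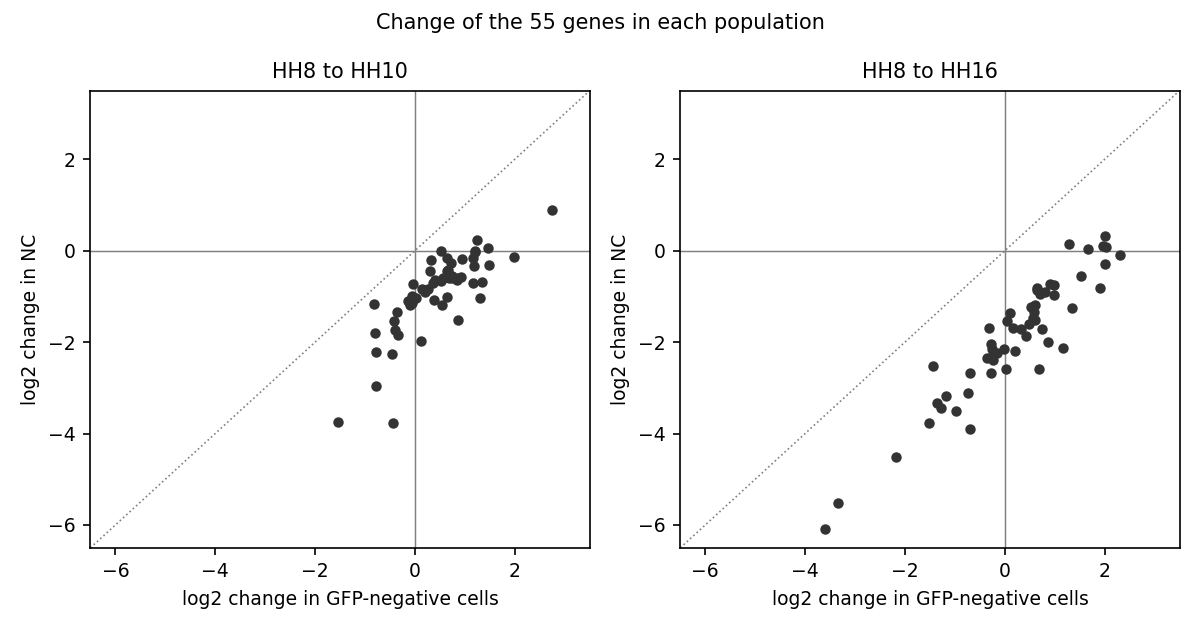
Change in mean level of each of the 55 genes (points) from HH8 to HH10 (left) and from HH8 to HH16 (right), in GFP-negative cells on the horizontal axis and in NC on the vertical axis, both as log2 of CPM with 0.5 added. The dotted line marks equal change, and the rule fixes that every point at HH16 lies below it. From HH8 to HH10, 36 points lie below 0 on the vertical axis and above 0 on the horizontal one, where NC was lower and GFP-negative cells higher.

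The 2 genes with the lowest log2 change in NC from HH8 to HH16 also had the lowest in GFP-negative cells. ENSGALG00000026862 (chr9:14097822-14108342, plus strand, 4 exons) had 3292, 3278 and 2418 CPM in the NC libraries of HH6 and 2667, 1795 and 2729 in those of HH8. At HH10 its NC libraries held 473, 410 and 611 CPM, and at HH16 they held 33, 95.6, 96.8, 18.8 and 16.3. In GFP-negative cells its mean was 1018 ± 223 CPM at HH6 (SD, n = 3), 805 ± 330 at HH8 (n = 3), 585 ± 37.8 at HH10 (n = 3) and 78.8 ± 25.2 at HH16 (n = 5). Every NC library of HH6 and HH8 was above every GFP-negative library of those stages, and at HH10 the 2 fractions overlapped. The log2 change from HH8 to HH16 was -5.51 in NC and -3.34 in GFP-negative cells. Per kilobase of exon it was the most abundant of the 55 genes in NC at HH6, at 1151 CPM per kb. The second gene had 167 CPM per kb, the median was 12.5 and the lowest was 1.52.

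ENSGALG00000033695 (chr6:21525301-21528367, minus strand, 7 exons) had 336, 198 and 56.8 CPM in the NC libraries of HH6 and 122, 135 and 63.1 in those of HH8. In GFP-negative cells it had 112, 53.7 and 11.7 CPM at HH6 and 26.8, 17.9 and 13.8 at HH8. At HH10 the NC libraries held 9.02, 5.35 and 8.05 CPM and the GFP-negative libraries 8.19, 6.62 and 4.29. The fractions overlapped at HH6, stood apart at HH8 and overlapped again at HH10, where both were low. No kept library of HH16 was above 2.53 CPM, and 1 NC library of HH16 had no read of it. In the left-out NC library of HH10 the 2 genes stood at 2297 CPM for ENSGALG00000026862 and 126 CPM for ENSGALG00000033695, within the range of the kept NC libraries of HH8 and above the kept NC libraries of HH10.

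The highest log2 changes in NC from HH8 to HH16 were those of ENSGALG00000012647 and ENSGALG00000036390. ENSGALG00000012647 (chr1:53713025-53802913, minus strand, 19 exons) had 12.5 ± 5.96 CPM in NC at HH8 (SD, n = 3) and 15.8 ± 8.73 at HH16 (n = 5), while its GFP-negative mean went from 5.24 ± 3.01 to 22.5 ± 8.71. Its NC mean at HH16 was 12.0 without replicate 2, below that of HH8, so the direction in NC rests on that library. ENSGALG00000036390 (chr2:48424506-48443357, minus strand, 6 exons) had 28.1, 20.1 and 13.2 CPM in NC at HH8, and 3.16, 4.47, 2.65 and 5.12 at HH12. At HH16 its NC libraries were back at 25.9, 14.6, 5.67, 33.9 and 33.3 CPM, beside 20.8, 21.3, 19, 28.3 and 27.1 in GFP-negative cells. Its 2 fractions were apart at HH12, with every GFP-negative library above every NC library, and overlapped at HH16.

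The highest log2 changes in GFP-negative cells from HH8 to HH16 were those of ENSGALG00000030054 and ENSGALG00000033671. ENSGALG00000030054 (chr2:8874767-9429088, minus strand, 22 exons) had 15.8, 3.62 and 9.70 CPM in GFP-negative cells at HH8 and 30.9, 52.7, 59.9, 54.4 and 50.6 at HH16, a log2 change of 2.30. In NC its change over the same stages was -0.09. ENSGALG00000033671 (chr1:172661162-172776030, minus strand, 24 exons) had 8.71, 3.81 and 5.02 CPM in GFP-negative cells at HH8 and 28.4, 23.6, 16.0, 38.2 and 20.6 at HH16, a change of 2.03. In NC it had 16.6, 20.0 and 20.5 CPM at HH8 and 36, 14 and 57 at HH10. Its mean in NC was thus higher at HH10 than at HH8, with 1 of the 3 NC libraries below all of those of HH8.

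At HH10, the stage that the rule did not use, none of the 55 genes was called different between NC and GFP-negative cells at an adjusted p under 0.05 (edgeR's quasi-likelihood test, Benjamini-Hochberg adjustment over 15737 genes). Over all genes tested, 175 were called, or 1.11%, of which 38 were higher in NC and 137 lower. In the fit blocked by pool 74 of 186 calls were higher, and without GFP-negative replicate 3 of HH10 it was 129 of 267. The count of 175 ran from 14, without NC replicate 2, to 267, without GFP-negative replicate 3, when 1 library of HH10 was left out. At an unadjusted p under 0.05 there were 3 of the 55, against 13% of all genes tested. DESeq2 and limma voom also called none of the 55. The median log2 fold change of the 55 was 0.23, with a range of -1.04 to 1.61, and 39 of 55 were above 0. Over all genes tested the median was 0.02 and 51.6% were above 0. The median half-width of the 95% intervals was 1.00, with no adjustment for the number of genes. At the adjusted threshold even the largest log2 fold change of the 55, 1.61, was not called. At this replication, having no call does not by itself leave out a 2-fold difference. For 19 of the 55 genes the interval's upper bound was below 1, which leaves out a 2-fold higher level in NC at HH10. In the fit blocked by pool that held for 10 genes, 9 of them among the 19. For 34 genes the interval held both 0 and 1, so neither equal levels nor a 2-fold difference was left out. In 2 genes the lower bound was above 0, and in 1 the upper bound was below 0. The interval counts were not taken over all genes tested, so nothing is read from them about the 55 in particular.

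**Figure D4:**
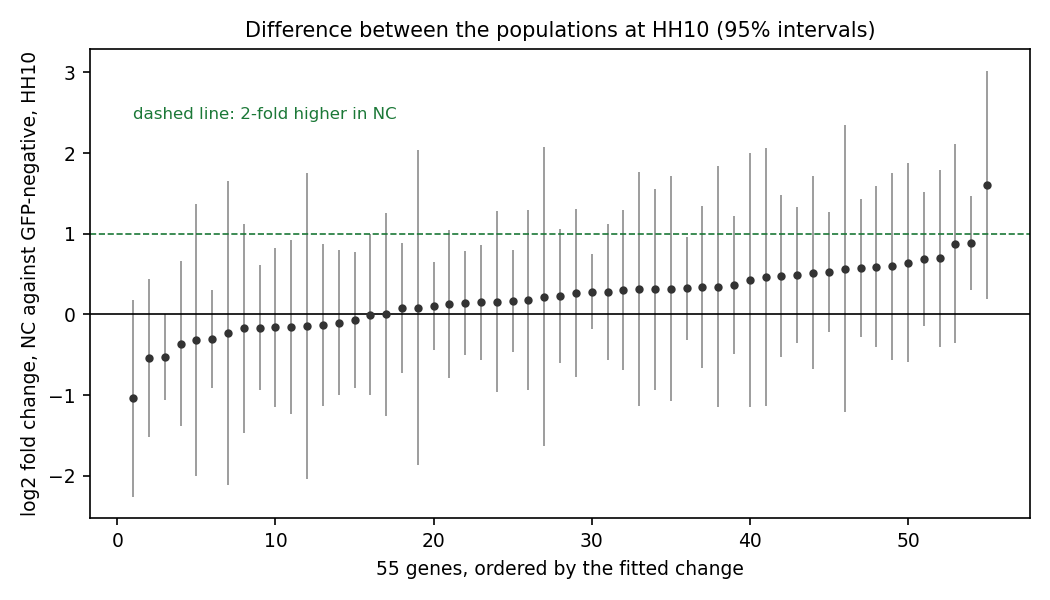
Fitted log2 fold change of NC against GFP-negative cells at HH10 for each of the 55 genes (points), with 95% intervals, ordered by size; the dashed line marks a 2-fold higher level in NC. The points run from -1.04 to 1.61, 39 of 55 are above 0, and 34 intervals hold both 0 and 1.

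The size of the HH10 difference depended on which libraries were set against each other. Only 2 pools of HH10 have both libraries among those kept. The median log2 ratio of the 55 genes was 0.86 in one, with 45 of 55 above 0, and 0.15 in the other, with 36 above 0. The 8913 genes had medians of 0.08 and 0.04 there. At least 2-fold higher in NC were 25 of 55 in the first, against 11.1% of the 8913 genes, and 5 of 55 in the second, against 2.23%. The pool at 0.86 set an NC library of the run HTNMMBGX3 against a GFP-negative library with the code HTTM3BGX5-HJNG2BGX5. The pool at 0.15 lay within the run HGM37BGX7. In the tested contrast, NC replicate 4 and GFP-negative replicates 3 and 4 were of HGM37BGX7, so run was not balanced between the fractions. The pool whose NC library was left out and whose GFP-negative library was kept also lay within HGM37BGX7. Its median was 0.83 and 52 of 55 genes were above 0. That NC library is the one closer to the kept NC libraries of HH8 than to those of its labelled stage, and the 55 genes summed to 7401 CPM in it, above the 2313 to 3554 CPM of the kept NC libraries of HH10. In this pool, 23 of 55 were at least 2-fold higher in NC, against 4.05% of the 8913 genes. With the pool as a replicate block, which leaves the estimate at HH10 to the 2 complete pools, the median log2 fold change was 0.59. Of the 55, 48 were above 0, and the median over all genes tested was 0.11. The block gave an unadjusted p under 0.05 for 10 of the 55, against 16.9% of all genes, and again called none. The GFP-negative library of HH10 with the lowest median of the 55 genes, replicate 2, stood at 11.5 CPM, beside 20.7 and 19.8 in the other two. Without it the median log2 fold change was 0.00 and 29 of 55 were above 0.

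The 55 genes had less of the early difference left at HH10 than the 133 other genes that shared it. Their median ratio was 1.11, with 18 below 1 and 5 at 1.5 or more. The 133 other genes with a ratio of 2 or more at HH6 and HH8 had a median of 1.68. A ratio of 2 or more at HH10 was seen in 1 of the 55 and in 37 of the 133, or 1.82% and 27.8%. The 2 sets were split by their later ratios, so a lower value at the stage in between is given as a description. At HH12 the median ratios were 0.91 and 1.58, at HH14 0.94 and 1.45, and at HH16 0.67 and 0.85. The HH16 ratio was below 1 in 52 of the 55 genes, or 94.5%, in 68.4% of the 133 and in 61.9% of the 8913 genes. The rule held the HH16 ratio of the 55 under 1.25, so these shares are a description.

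The gene furthest above 0 at HH10 was ENSGALG00000004386 (chr18:8785940-8789042, plus strand, 3 exons). It had 32.7, 80.7 and 66.6 CPM in the NC libraries and 20.5, 20.7 and 21.9 in the GFP-negative libraries. Every NC library was above every GFP-negative library, and the log2 fold change was 1.61 ± 0.70 (SE), with an adjusted p of 0.305 in edgeR's quasi-likelihood test. Its early difference was less even, with 12.8, 15.8 and 43.5 CPM in NC at HH6 beside 17, 9.65 and 2.46 in GFP-negative cells. The 2 fractions overlapped at HH6, and the pool with 43.5 CPM in NC and 2.46 in GFP-negative cells had most of the difference. At HH16 its NC libraries ran from 1.86 to 80.9 CPM.

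The next was ENSGALG00000010490 (chr6:35825229-35837369, plus strand, 15 exons), with 72.9, 56.2 and 77.5 CPM in NC and 39.9, 27.6 and 50.4 in GFP-negative cells at HH10. The groups did not overlap, and the log2 fold change was 0.89 ± 0.29 (SE), with an adjusted p of 0.132 in the same edgeR test. Its log2 change from HH8 in NC was -0.01 at HH10 and 0.04 at HH16, with HH16 libraries of 53.4, 88.6, 65.5, 68.9 and 82.4 CPM. In GFP-negative cells it went from 14.7, 29.2 and 37.4 CPM at HH8 to 51.5, 86.0, 82.2, 90.8 and 127 at HH16. Its log2 change in GFP-negative cells was 0.53 to HH10 and 1.67 to HH16, so for this gene the GFP-negative mean moved more than the NC mean.

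The gene furthest below 0 at HH10 was ENSGALG00000038634 (chr4:65269770-65321836, minus strand, 21 exons). It had 7.35, 3.61 and 9.11 CPM in NC and 19.6, 12.1 and 11.2 in GFP-negative cells, so every NC library was below every GFP-negative library. The log2 fold change was -1.04 ± 0.60 (SE), with an adjusted p of 0.488 in edgeR's test. At HH6 and HH8 the same gene had 10.6 to 26.4 CPM in NC and 1.75 to 9.53 in GFP-negative cells, and at HH14 it had 6.69, 8.14 and 6.73 in NC beside 36.7, 19.3 and 19.3 in GFP-negative cells. Its ratio was 2.62 at HH6, 2.45 at HH8, 0.49 at HH10, 0.47 at HH12 and 0.30 at HH14. At HH16 it was 0.81, with 4.59 ± 3.14 CPM in NC and 5.74 ± 3.54 in GFP-negative cells (SD, n = 5 each), and the libraries overlapped.

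The second was ENSGALG00000003999 (chr5:1958644-2261543, plus strand, 43 exons), with 60.7, 31.8 and 62.9 CPM in NC and 45.2, 125 and 67.0 in GFP-negative cells at HH10. The groups overlapped, and the log2 fold change of -0.54 ± 0.48 (SE) had an adjusted p of 0.723 in edgeR's test. With the replicate block its log2 fold change was 0.19, so its direction is not settled by these libraries.

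The 55 genes differed among themselves in structure, which the rule did not use, with spans from 1.55 to 554 kb. They had a median of 16 exons, 3093 bp of summed exon length and 50.1 kb of genomic span. The 8913 genes with the level asked for had medians of 10 exons, 2608 bp and 14.7 kb, and the 133 other early genes had 11 exons, 2967 bp and 23.8 kb. More than 16 exons were found in 27 of the 55, or 49.1%, beside 24.6% of the 8913. A span of 50 kb or more was found in 28 of the 55, or 50.9%, beside 16.9% of the 8913 and 31.6% of the 133. Genes with 6 or fewer exons made up 25.5% of the 55, 30.8% of the 133 and 28.2% of the 8913. None of these differences was tested.

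Exon number also went with the ratio over all genes in some pools. Among the 8913 genes, those with more than 16 exons had a median log2 ratio of NC to GFP-negative cells of 0.13 at HH6, 0.39 at HH8, -0.07 at HH10 and -0.17 at HH16. Those with 6 or fewer had -0.05, -0.08, 0.04 and -0.02. By kept pool, the genes with more than 16 exons had medians of -0.04, 0.01 and 0.60 at HH6 and 0.01, 0.70 and 0.54 at HH8. The pools with the high values were also the ones in which the 55 genes had their largest medians. In the 3 early kept pools where genes with many exons had medians of -0.04, 0.01 and 0.01, the 55 genes had medians of 1.19, 1.01 and 1.10. In the left-out pool of HH6, genes with more than 16 exons had a median of 0.07 and those with 6 or fewer had -1.27. The 55 genes had 0.31 there. In the left-out pool of HH8 the 2 medians by exon number were 0.02 and -0.03, and the 55 genes had -0.38. At HH8 the 14 of the 55 with 6 or fewer exons had a median log2 ratio of 1.32, and the 27 with more than 16 exons had 1.44. The rule holds the mean ratio of each of the 55 at 2 or more at HH6 and HH8. Their medians in the early kept pools and by exon number are therefore a description. At HH16 the pools with medians of -0.54 and -0.88 for genes with many exons were 2 of the 3 with the lowest medians of the 55 genes, -0.56 and -1.50. What part exon number or gene length has in the selection was not tested.

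**Figure D5:**
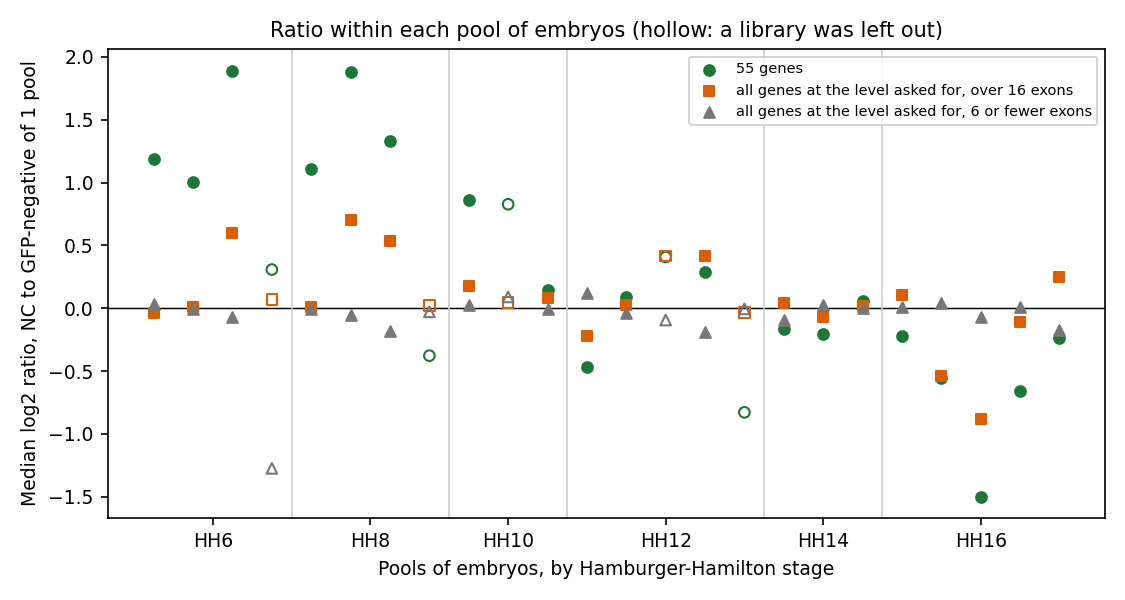
Median log2 ratio of NC to GFP-negative cells within each pool of embryos, by stage, for the 55 genes (green circles) and for genes with the level asked for that have more than 16 exons (orange squares) or 6 or fewer (grey triangles). Hollow symbols are pools in which the authors left out a library. At HH6 and HH8 the 55 genes lie between 1.01 and 1.89 in the kept pools, while the genes with many exons lie near 0 in 3 of them and between 0.54 and 0.70 in the other 3.

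The 55 genes were spread over 22 chromosomes. Chromosomes 2 and 5 held 6 each, beside 720 and 561 of the 8913 genes, and 1 and 4 held 5 each, beside 1092 and 614. Chromosomes 18 and 6 held 4 each, beside 194 and 284. On the plus strand were 29 of the 55, or 52.7%, beside 50.4% of the 8913. Only 1 pair was next to each other among the 8913 genes, ENSGALG00000037856 and ENSGALG00000008263 on chromosome 12, 523 kb apart. This pair was named after its positions were seen. Spans of 6 of the 55 overlapped another annotated gene on the same strand. Where exons overlap there, the counting would not assign the shared reads, but overlap of exons was not examined. Spans of 5 overlapped a gene on the other strand, which the strand-aware counting separates. Overlaps were not counted over the 8913 genes, so nothing is read from these counts about the 55.

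Measured one gene at a time in the same fit, 3 of the 55 were called higher in NC at HH6, where 0.184% of all genes tested were, and 13 of 55 at HH8, where 0.674% were. The rule used both contrasts, so the counts are a description and not a test of the 55. In each of these contrasts most of the 55 genes were not called gene by gene, with 3 libraries a group.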

How the data were processed

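The deposited values are raw read counts per gene, made by the authors with featureCounts 1.6.2 against the Ensembl annotation of GRCg6a, counting exons of the reverse strand, per the file headers. The submitters' processing notes also name cutadapt 2.10, HISAT2 2.1.0 and SAMtools 1.9. Per the file headers, multi-mapping reads and reads shared by overlapping genes were given no option of their own, so they were not counted. Coordinates count from 1.

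The 42 libraries of the authors' filtered table were used, with counts identical to those of the full table of 50. The 55 genes and all lists were chosen with earlier results of these data known. Levels are CPM on column sums, and log2 changes and ratios use means with 0.5 CPM added. The HH10 contrast was fitted with edgeR 4.0.16 in R 4.3.3 (TMM, filterByExpr, 1 fit over 12 groups, common dispersion 0.219), which tested 15737 genes, all 55 among them, at a threshold of 0.05. The fit was tested on simulated counts. DESeq2 1.42.0, limma voom 3.58.1, other filters, libraries left out and the pool as a block were the alternatives. Replicates share no library by their counts (lowest chi-square per degree of freedom 8.31), and pools of embryos are told apart by title alone. A p-value therefore covers the variation among these libraries, which may be technical in part.

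Libraries of both fractions whose titles share a pool name were taken as pairs from the same heads. Deviations from the group means of paired libraries correlated at 0.183 to 0.412 at HH6, 0.171 to 0.290 at HH8, and 0.00717 and 0.0921 in the 2 complete pools of HH10.

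The identifiers named are the 2 highest and 2 lowest of the 55 for the HH10 difference and for the change from HH8 to HH16 in each fraction, among genes with a mean of at least 10 CPM, since nothing at hand pairs identifiers with names. For the same reason the planned gene lists and cell type markers were not used here.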

Additional observations from a re-analysis of the deposited data

Results flagged for a closer look

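Single libraries stood far from the others of their group in 2 of 44 groups of values examined, and chance alone gives about 1 in 20 such groups. ENSGALG00000012647 had 30.9 CPM in NC replicate 2 of HH16, where the other 4 libraries had 8.97 to 15.1. ENSGALG00000030054 had 28.3 CPM in NC replicate 2 of HH12, where the other 3 had 16.9 to 18. The groups examined were those of 4 or 5 libraries, for the 10 genes named by rule and for the median of the 55 genes.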

How the results depend on the processing

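None of the 55 genes was called at HH10 under any of 15 alternatives. The count of all genes called there, 175, was 78 with all 50 libraries, 116 with no filter on low counts, 606 with DESeq2, 337 with limma voom and 7 with all 50 libraries and the replicate block, and 14 to 267 when 1 HH10 library was left out. It was 14 without NC replicate 2, 33 without NC replicate 4, 63 without GFP-negative replicate 2, 113 without GFP-negative replicate 4 and 267 without GFP-negative replicate 3. Limma voom and the 50-library block were chosen after seeing the data. The median log2 fold change of the 55 genes, 0.23, was 0.82 with all 50 libraries, 0.59 with the replicate block (paired by pool, 186 genes called) and 0.70 with both, and 0.00 to 0.36 when 1 library was left out. The block changed no call among the 55. The rule selected 35 genes, all among the 55, on TMM-scaled library sizes, 91 genes with all 50 libraries, 18 of them among the 55, and 30 to 79 when 1 library was left out, of which 30 to 55 were among the 55.

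The HH10 direction of 4 named genes turned. ENSGALG00000003999 had a log2 fold change of 0.11 with all 50 libraries, 0.19 with the replicate block and 0.15 with both. ENSGALG00000012647 had 0.47, 0.43 and 0.36, and -0.502 to 0.0776 when 1 library was left out. ENSGALG00000033671 had 0.31, 0.59 and 0.26, and -0.63 to 0.18. ENSGALG00000026862 had 0.83 with all 50 libraries and 0.59 with those and the block. The causes were not tested. The median changes with stage kept their direction with TMM-scaled library sizes, other amounts added before log2 and 1 kept library left out. In the last case they were -0.82 to -0.59 in NC and 0.26 to 0.77 in GFP-negative cells from HH8 to HH10. From HH8 to HH16 they were -1.89 to -1.59 and 0.17 to 0.52. Their direction with all 50 libraries was not tested. From HH8 to HH10 the medians of the left-out libraries went the other way. They went from 28.1 to 38.7 CPM in NC and from 24.5 to 3.88 in GFP-negative cells. Each of these libraries correlated better with kept libraries of another stage than with those of its labelled stage. The interval count with the block and the value without 1 library of ENSGALG00000012647 were also added after seeing the data.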
